A study of Mus musculus with 4 samples.

Results

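The 10 genes examined here encode FGF receptors and feedback components of the FGF pathway, and were followed in cochlear ducts of mouse embryos in which *Tbx2* was targeted for deletion in prosensory cells. The genes were picked by name for their place in the pathway, with no measured value in the rule, although earlier results of these data were known. They are the receptors *Fgfr1*, *Fgfr2* and *Fgfr3*, the receptor-like gene *Fgfrl1*, the feedback inhibitors *Spry1*, *Spry2*, *Spry4* and *Dusp6*, and the ETS transcription factors *Etv4* and *Etv5*. All 10 were among the 29924 gene names on the array, and all 10 were among the 21042 genes bright enough to be tested.

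FGF ligands bind receptor tyrosine kinases at the cell surface and, with heparan sulphate as a partner, switch on the RAS and ERK cascade. ERK activity induces *Etv4* and *Etv5*, which carry the signal to target genes, and *Spry* and *Dusp6* genes, whose products damp the same cascade. In the cochlea, FGF signalling acts in the early prosensory domain and again when pillar cells, the supporting cells between inner and outer hair cells, are specified, a step in which *Fgfr3* takes part.

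Transcripts were measured at E14.5, before hair cells differentiate, on 4 Agilent 2-colour arrays. Each array set 1 pool of *Sox2-Tbx2LOF* ducts against 1 pool of control ducts of the same sex, female on arrays 1 and 2 and male on arrays 3 and 4. Mutant RNA carried Cy5 on arrays 1 and 3 and Cy3 on arrays 2 and 4. Mutants were *Sox2(creERT2);Tbx2(fl/fl)* and controls *Tbx2(fl/n.d.)*, with the second control allele not determined, and the methods describe the controls as cre-negative. The matings given in the methods for this mutant also bring in a *R26(mTmG)* reporter allele. All embryos were on the NMRI background and were exposed to tamoxifen, 4 mg given by mouth to the dam at E12.5. CreERT2 is a recombinase that acts only with tamoxifen and is driven here from the *Sox2* locus, so that recombination is limited to cells that express *Sox2*, whereas the pools hold whole ducts without the spiral ganglion. Each mutant also carries the insertion at *Sox2* itself, and effects of this insertion and of the loss of *Tbx2* cannot be told apart in this design. The methods describe the pools as independent, and with 4 arrays the precision of each value is limited.

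Median spot intensities before normalization were 262.9 to 291.9 in Cy3 and 496.5 to 563.4 in Cy5. The targeted gene was read by 1 probe, on chromosome 11 of mm9 from 85655391 to 85655450, whose log2 ratios of mutant over control were −0.25, −0.05, −0.13 and −0.03 on arrays 1 to 4. This difference did not pass the test (adjusted p = 0.124, limma), and whether the probe lies in the deleted part of *Tbx2* is not given in the sources used here. Ratios over all tested genes correlated with r between 0.616 and 0.679 for arrays of the same dye direction and between −0.104 and 0.0708 for arrays of opposite direction. All 12 markers of cochlear duct epithelium that were examined, such as *Epcam* and *Oc90*, were bright enough to be tested. Neuron markers were lower in the mutant, with 7 of the 9 tested past the threshold and a median log2 ratio of −0.39.

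Of the 10 genes, *Fgfr3* rose and *Spry1* and *Dusp6* fell in *Sox2-Tbx2LOF* ducts at an adjusted p below 0.05 (limma, Benjamini-Hochberg over all genes tested). Among all tested genes 476 rose, or 2.26%, and 615 fell, or 2.92%. With a change of at least 1.5-fold required as well, *Fgfr3* was the only one of the 10 to pass, against 28 genes that rose (0.133%) and 65 that fell (0.309%) in all. The median log2 ratio of the 10 genes was −0.12 and that of all tested genes 0.00. The mean ratio was below 0 for 7 of the 10 genes, among them all 6 feedback and target genes. With a median of 0.00, about as many of all tested genes lay below 0 as above. *Spry2* counts among the 6 at −0.01, and without array 1 or array 2 its ratio was 0.01 or 0.06. Fewer cells of a type and less RNA per cell cannot be told apart in such pools.

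**Figure D1:**
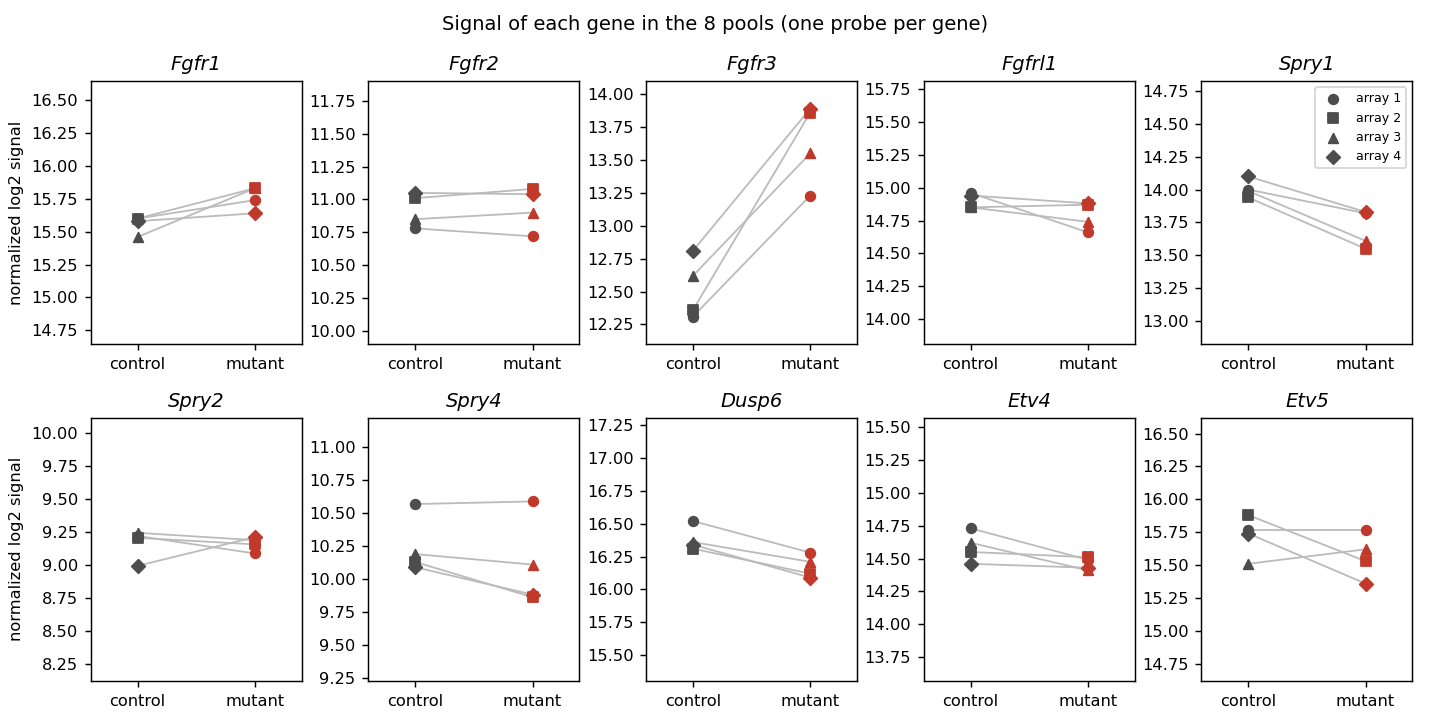
Normalized log2 signal (y axis) of the tested probe of each of the 10 genes in the 4 control (grey) and 4 mutant (red) pools, with lines joining the pools of 1 array. Each panel spans the same range on the log2 scale, and the levels of different probes are not comparable. The mutant pools of Fgfr3 lie between 13.23 and 13.89 and the control pools between 12.31 and 12.81.

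Probes of *Fgfr3* and *Fgfr1* from the main body of the transcripts are shown first, because related receptors could cross-hybridise and because *Fgfr3* carries the largest difference among the 10 genes. Both are 60 bases long, and the capitals mark the longest run of identical bases that they share, 8 bases.
Fgfr3, probe starting at transcript base 2558: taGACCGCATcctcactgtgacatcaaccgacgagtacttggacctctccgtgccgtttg
Fgfr1, probe starting at transcript base 2988: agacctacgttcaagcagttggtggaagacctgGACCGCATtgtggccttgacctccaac
Over all 112 pairs of probes that read different genes of the 10, the longest shared run was 9 bases. Runs shared between probes do not show whether a probe matches another gene's transcript, and cross-hybridisation was not tested. The brightest *Fgfr3* probe lies further towards the transcript's 3′ end, from base 4176. Its last 30 bases hold the polyadenylation hexamer AATAAA, in capitals.
Fgfr3, last 30 bases of the brightest probe: ttactttccaaaaAATAAAgagataactgg

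*Fgfr3* encodes the receptor that marks pillar and outer supporting cells of the later organ of Corti. Its brightest probe, on the plus strand of chromosome 5 of mm9 from 34079649 to 34079708, read 13.23, 13.86, 13.55 and 13.89 in the mutant pools of arrays 1 to 4 and 12.31, 12.36, 12.62 and 12.81 in the control pools (normalized log2 signal). The mutant pools were all higher than every control pool. For this and the other genes whose groups did not overlap, the share of all tested genes without overlap was not counted. The log2 ratios of mutant over control were 0.92, 1.502, 0.94 and 1.08, with a mean of 1.11 ± 0.27 (SD, n = 4). The fold change was 2.16, the limma SE 0.064, the 95% interval 0.96 to 1.26 on the log2 scale and the adjusted p 0.000119. The ratio was highest on array 2, and leaving out each array in turn gave log2 ratios between 1.00 and 1.21. Only 3 of the 21042 tested genes had a higher ratio.

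A second *Fgfr3* probe, the one printed above, maps between 34077856 and 34078090 of chromosome 5, a stretch of 235 bases for a probe of 60, so it joins separate pieces of the genome as a probe across a splice junction does. It read 9.48, 9.75, 9.86 and 9.80 in the mutant pools and 9.27, 9.32, 9.41 and 9.47 in the control pools. The groups did not overlap here either. Its mean log2 ratio of 0.36 ± 0.11 (SD, n = 4) had a limma SE of 0.048 and an adjusted p over the 27963 tested probes of 0.00715, and it was above 0 on 4 of 4 arrays. The brightest probe exceeded this one by 0.71, 1.07, 0.48 and 0.74 in log2 ratio on arrays 1 to 4. Both probes therefore rose, by unequal amounts, and what sets the difference between them was not tested. A remaining probe, from 34074696 to 34074755 and assigned to another transcript, was not well above background in any of the 8 pools.

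**Figure D2:**
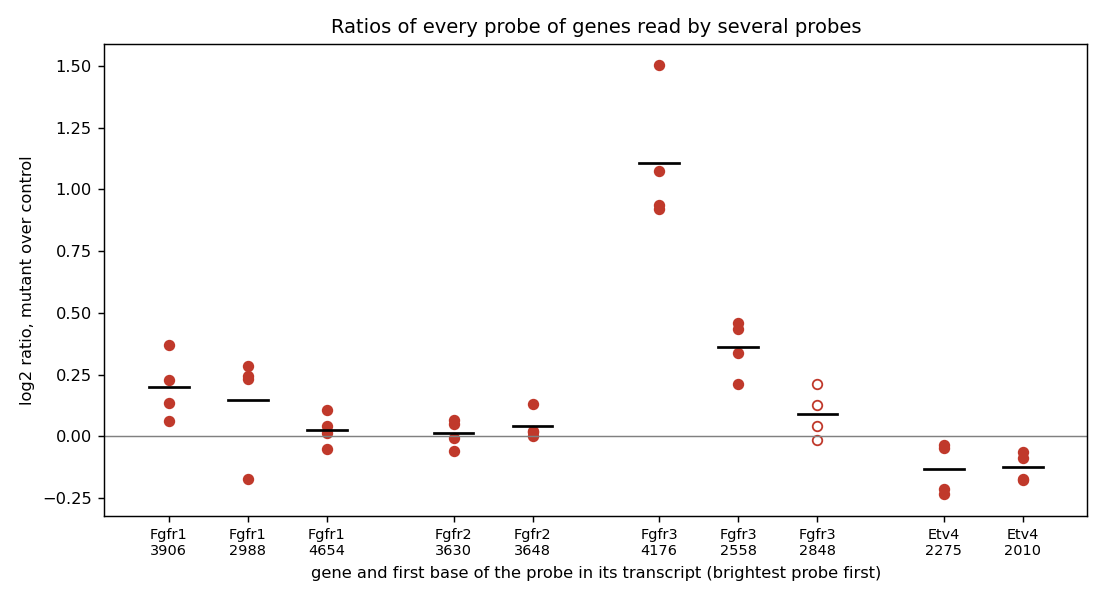
Log2 ratio of mutant over control (y axis) on the 4 arrays for each probe of the 4 genes that have several, with the first base of the probe in its transcript under the gene name and the mean as a bar. Open circles mark the Fgfr3 probe that was not well above background in any pool. The means of the Fgfr3 probes above background were 1.11 and 0.36.

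*Fgfr1* encodes the main FGF receptor of prosensory progenitors. Its brightest probe, on chromosome 8 from 26685072 to 26685131, read 15.74, 15.83, 15.83 and 15.64 in the mutant pools and 15.60, 15.60, 15.46 and 15.58 in the control pools. The groups did not overlap, by a narrow margin, which was not set against all tested genes. On average the ratio was 0.20 ± 0.13 on the log2 scale (SD, n = 4; limma SE 0.050, 95% interval 0.083 to 0.31), above 0 on 4 of 4 arrays, and missed the threshold with an adjusted p of 0.0660. The *Fgfr1* probe printed above, from 26684061 to 26684120, gave −0.17, 0.23, 0.24 and 0.28 (mean 0.15 ± 0.21, adjusted p over probes = 0.269, limma). A further probe, from 26685820 to 26685879, gave 0.03 ± 0.07. None of the *Fgfr1* probes passed, and the differences between them were not tested.

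*Fgfr2* encodes a receptor best known for epithelial outgrowth of the inner ear. The signal on chromosome 7 from 137307473 to 137307532 was 10.72, 11.08, 10.90 and 11.04 in the mutant pools and 10.78, 11.01, 10.85 and 11.05 in the control pools. Mutant and control pools overlapped almost completely. The log2 ratio was 0.01 ± 0.06 (SD, n = 4), with a 95% interval of −0.074 to 0.099 (adjusted p = 0.896, limma). An overlapping probe, from 137307455 to 137307514, gave 0.04 ± 0.06.

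*Fgfrl1* encodes a receptor-like protein that binds FGFs but has no tyrosine kinase domain. On chromosome 5 from 109135855 to 109135914 it read 14.66, 14.87, 14.74 and 14.88 in the mutant pools and 14.96, 14.85, 14.85 and 14.94 in the control pools, and the groups overlapped. The ratio was −0.29 on array 1 and between −0.11 and 0.02 on the others. Its mean was −0.11 ± 0.13 (SD, n = 4; 95% interval −0.21 to −0.015), with an adjusted p of 0.188 from limma. Thus 1 of the 4 receptor genes passed the test, as higher, where 2.26% of all tested genes rose. The other 3 receptor genes had changes under 1.5-fold.

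**Figure D3:**
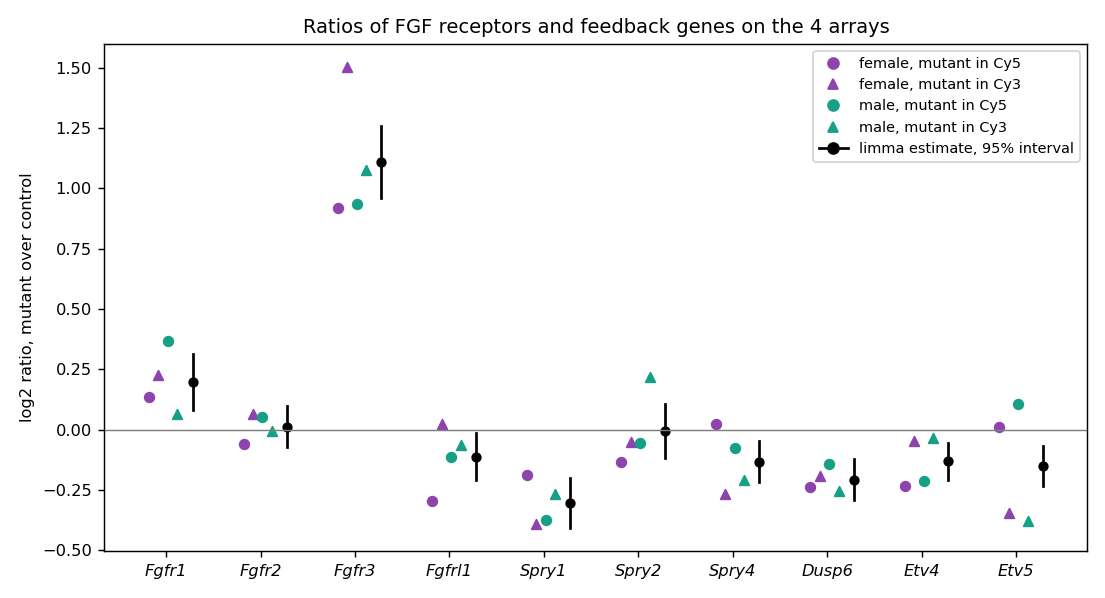
Log2 ratio of mutant over control (y axis) for each of the 10 genes on the 4 arrays, coloured by sex with the dye of the mutant pool shown by the symbol. The black point and line give the limma estimate and its 95% interval. Fgfr3 stands at 1.11, and the other 9 genes lie between −0.30 and 0.20.

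The *Spry* genes encode Sprouty proteins, inhibitors of receptor tyrosine kinase signalling that FGF signalling itself induces. *Spry1*, on chromosome 3 from 37543403 to 37543462, read 13.82, 13.55, 13.61 and 13.83 in the mutant pools and 14, 13.94, 13.99 and 14.10 in the control pools. Every mutant pool was lower than every control pool. The log2 ratios were −0.19, −0.39, −0.37 and −0.27, with a mean of −0.30 ± 0.10 (SD, n = 4; limma SE 0.044, 95% interval −0.41 to −0.20, adjusted p = 0.00905), a 1.23-fold fall. Without array 3 the ratio was −0.26 and no longer passed (adjusted p = 0.0719, limma).

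*Spry1* is also the only one of the 10 genes near the CreERT2 insertion, 2.99 Mb from the *Sox2* probe on chromosome 3. Of 68 tested genes within 5 Mb of that probe, 11 rose, or 16.2%, and 7 fell, or 10.3%, with *Spry1* among them. Over all tested genes the shares were 2.26% and 2.92%. Mutants carry the insertion and the chromosome around it while controls lack it, and the part of this neighbourhood in the *Spry1* value was not tested. *Sox2* itself had log2 ratios of 0.08, 0.08, −0.26 and 0.14 (adjusted p = 0.935, limma).

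*Spry2* and *Spry4* did not pass the test. *Spry2*, on the minus strand of chromosome 14 from 106291845 to 106291904, read 9.09, 9.16, 9.19 and 9.21 in the mutant pools and 9.22, 9.21, 9.24 and 8.99 in the control pools. Its groups overlapped, and the ratio was above 0 on array 4 alone (0.22, against −0.13 to −0.05 on the others), with a mean of −0.01 ± 0.15 (SD, n = 4; 95% interval −0.12 to 0.11, adjusted p = 0.966, limma). *Spry4*, on chromosome 18, read 10.59, 9.86, 10.11 and 9.88 in the mutant pools and 10.57, 10.13, 10.19 and 10.09 in the control pools. Both pools of array 1 were the highest of their group, and the groups overlapped. The ratio of *Spry4* was −0.13 ± 0.13 (SD, n = 4; 95% interval −0.22 to −0.048), with an adjusted p of 0.0859 from limma.

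*Dusp6* encodes a phosphatase that removes the activating phosphates of ERK and is a common readout of FGF signalling. Its probe, on chromosome 10 from 98729985 to 98730044, read 16.28, 16.12, 16.21 and 16.09 in the mutant pools and 16.52, 16.31, 16.36 and 16.34 in the control pools. All mutant pools were lower than the control pools, by a narrow margin for the nearest pair. The log2 ratios were −0.24, −0.19, −0.14 and −0.26, and their mean was −0.21 ± 0.05 (SD, n = 4; limma SE 0.036, 95% interval −0.29 to −0.12, adjusted p = 0.0202), a 1.15-fold fall. The direction was kept without any 1 array, but the threshold was missed without array 1 (−0.18, adjusted p = 0.108), array 3 (−0.23, adjusted p = 0.0695) or array 4 (−0.19, adjusted p = 0.0815, all limma).

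*Etv4* and *Etv5* encode ETS factors whose transcripts follow FGF activity in many tissues. By in situ hybridization at E14.5 the paper reports that both spread towards the inner side in mutants. Pools of whole ducts do not show such a pattern. *Etv4*, on chromosome 11 from 101631057 to 101631116, read 14.49, 14.51, 14.41 and 14.43 in the mutant pools and 14.73, 14.55, 14.62 and 14.46 in the control pools. The groups overlapped, although the mutant pool was the lower one on each array. The log2 ratios were −0.23, −0.05, −0.21 and −0.03, with a mean of −0.13 ± 0.11 (SD, n = 4; 95% interval −0.21 to −0.054, adjusted p = 0.0684, limma). Another *Etv4* probe, from 101631322 to 101631381, gave −0.13 ± 0.06, also below 0 on 4 of 4 arrays (adjusted p over probes = 0.134, limma).

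*Etv5*, on chromosome 16 from 22381387 to 22381446, read 15.77, 15.53, 15.62 and 15.36 in the mutant pools and 15.77, 15.88, 15.51 and 15.74 in the control pools. The groups overlapped, and the ratio followed the dye direction. The mean log2 ratio was 0.06 on the 2 arrays with mutant RNA in Cy5 and −0.36 on the 2 arrays with mutant RNA in Cy3. Over the 4 arrays it was −0.15 ± 0.25 (SD, n = 4; 95% interval −0.24 to −0.069), and the adjusted p was 0.0561 from limma with a dye term of 0.21. For *Spry1* the means in the 2 dye directions were −0.28 and −0.33, and for *Dusp6* −0.19 and −0.22. The corresponding means of *Fgfr3* were 0.93 and 1.29.

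**Figure D4:**
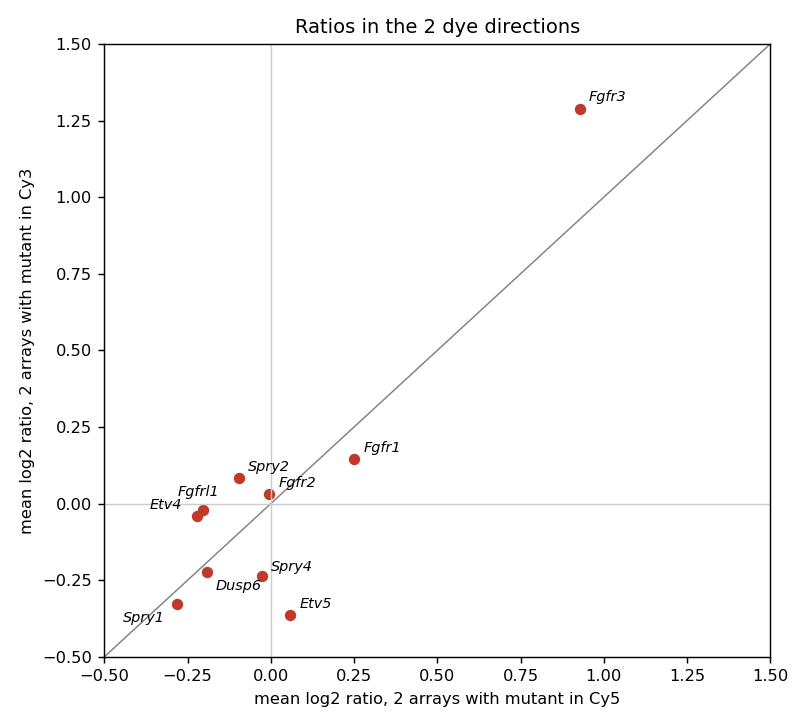
Mean log2 ratio of mutant over control of the 10 genes on the 2 arrays with mutant RNA in Cy5 (x axis) and on the 2 arrays with mutant RNA in Cy3 (y axis), with the line of equality. Fgfr2, Spry2 and Etv5 differ in sign between the directions, and all other genes shown, called or not, keep their sign. Etv5 lies at 0.06 and −0.36.

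Among the feedback and target genes, 2 of 6 fell and none rose, against 2.92% and 2.26% of all tested genes. They were *Spry1*, 2.99 Mb from the *Sox2* probe, and *Dusp6*, which kept its call in 7 of 14 alternatives. In the unpaired fit and without array 3, 0 passed as lower. The median log2 ratio of the 6 genes was −0.14. *Spry1*, *Dusp6* and *Etv4* were below 0 on all 4 arrays, as were 9.31% of all tested genes. The neuron markers moved in the same direction, with summed signals of 25060 to 29290 in the mutant pools and 28520 to 34040 in the control pools. Of the glia and Schwann cell precursor markers 3 of 8 fell, all by at least 1.5-fold, and 1 rose. Their median log2 ratio was −0.09 and their lowest −1.18. Their summed signal, to which bright genes contribute most, was 171300 to 197700 against 174700 to 203900. Among those that fell is *Fabp7*, which the paper also lists as a gene of the inner compartment. For periotic mesenchyme 1 of 10 fell and 1 rose (316300 to 335900 against 292000 to 307500). Blood markers gave 0 of 6 past the threshold, and endothelium markers 1 of 6, which rose. In the epithelium list 2 of 12 rose and 2 fell (448600 to 472300 against 419600 to 454700). No marker of these lists was below background in every pool. The part of these cell types in the values of the 10 genes was not tested.

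The arrays also allow the ratios of the sexes to be compared. The log2 ratio of *Fgfr3* was 1.21 in the female and 1.01 in the male pools, each the mean of 2 arrays, and that of *Spry2* −0.09 and 0.08. None of the 10 genes passed limma's test of the interaction of genotype and sex (adjusted p = 1.00 for each), and none had an unadjusted p below 0.05. Over all genes 0 of 21042 passed (0%), with 558 at an unadjusted p below 0.05. This fit leaves 1 residual degree of freedom among the arrays, so it says little about whether the sexes are alike.

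Genes that act around the receptors were examined in 5 lists with 91 genes, of which 85 were tested. Among all tested genes 2.26% rose and 2.92% fell. The list of FGF ligands held 5 genes that fell and 1 that rose among 16 tested, with a median log2 ratio of −0.04. *Fgf8*, made by inner hair cells and their precursors, fell by 0.93 ± 0.21 on the log2 scale (SD, n = 4; adjusted p = 0.000406, limma). *Fgf20*, a ligand of the prosensory domain, fell by 0.54 ± 0.15 (adjusted p = 0.00172, limma). *Fgf10* fell by 0.47 ± 0.05 and *Fgf7* by 0.27 ± 0.09, both ligands of the epithelial form of *Fgfr2*. *Fgf18* rose by 0.29 ± 0.14 (adjusted p = 0.0244, limma). The remaining ligand that fell, *Fgf3*, named after its values were seen, did so by 0.27 ± 0.10 (adjusted p = 0.00502, limma). All 5 ligands that fell were below 0 on 4 of 4 arrays, and *Fgf18* was above 0 on 4 of 4.

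The other genes that ERK signalling induces, together with further inhibitors, had 4 of 16 tested genes that fell, none that rose and a median log2 ratio of −0.11. *Dusp4*, a nuclear phosphatase of the *Dusp6* family, fell by 0.33 ± 0.10 (adjusted p = 0.00716, limma), and *Ccnd1*, which encodes cyclin D1, by 0.33 ± 0.14. Both were lower on 4 of 4 arrays. *Dusp1* gave −0.36, −0.42, 0.01 and −0.40 on arrays 1 to 4, and *Spred3*, a Sprouty-related inhibitor, −0.37, −0.11, −0.45 and 0.06. Each passed limma's test (adjusted p = 0.0322 and 0.0281) although 1 array stood on the other side of 0. *Fos*, an early-response gene named here after its values were seen, gave −3.17, −0.47, −0.94 and −0.15 and did not pass (adjusted p = 0.0626, limma). *Egr1*, chosen in the same way, gave −1.10, −0.19, 0.17 and −0.10. Array 1 gave the lowest ratio of both early-response genes. The *Dusp6* ratio on array 1, −0.24, lay between those of arrays 3 and 4, −0.14 and −0.26. A link between these values was not tested.

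Among receptor partners, 1 of 8 tested genes rose and 1 fell. *Flrt1*, a membrane protein that can associate with FGF receptors, rose by 0.26 ± 0.11 (adjusted p = 0.0205, limma), and *Cdh2*, which encodes N-cadherin, fell by 0.17 ± 0.07 (adjusted p = 0.0431, limma). None of the 24 genes of adaptors and the ERK cascade passed, and their log2 ratios lay between −0.09 and 0.08. None of the 21 heparan sulphate genes passed either, with ratios between −0.16 and 0.22. Over the 5 lists 2 of 85 tested genes rose and 10 fell, against 2.26% and 2.92% of all tested genes. Without array 1, 3 or 4 no listed gene passed as higher, and without array 1 or array 3 there were 6 that passed as lower.

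**Figure D5:**
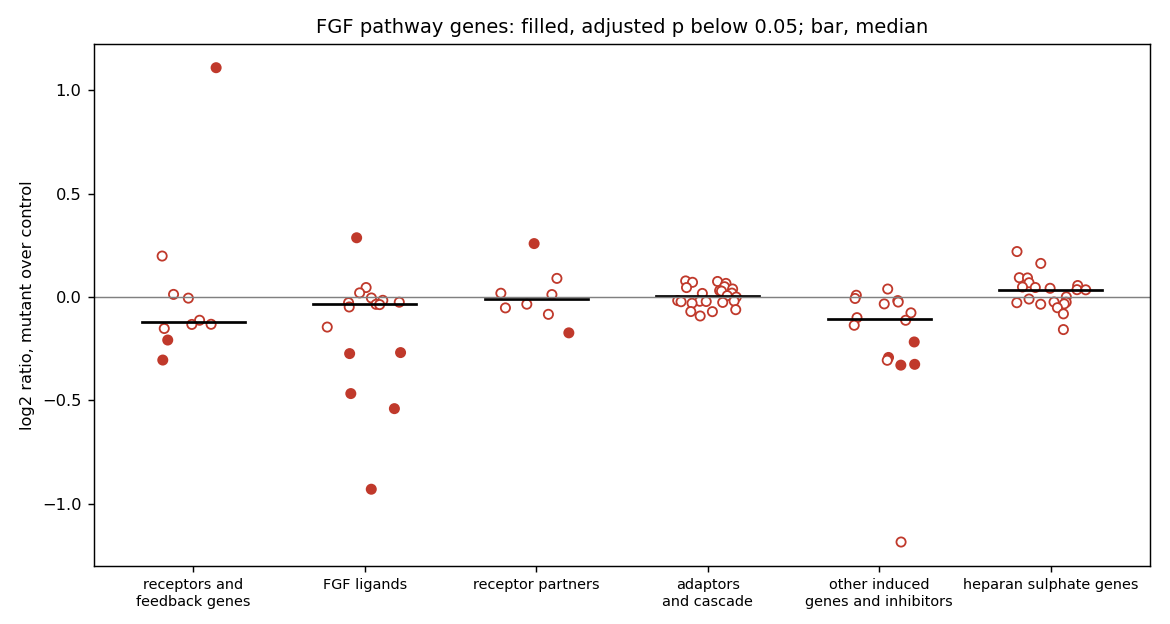
Log2 ratio of mutant over control (y axis) of the 10 receptors and feedback genes and of the genes tested in 5 lists of the FGF pathway, 1 circle a gene. Filled circles passed limma at an adjusted p below 0.05 and bars are medians. The ratios of adaptors and cascade genes stay within −0.09 and 0.08.

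The 5 tested genes whose ratios on the 4 arrays were nearest to those of *Fgfr3* were *Crhr1*, *Nr2e1*, *Umodl1*, *Ptpn5* and *BC048679*, with root mean square differences of 0.16, 0.22, 0.25, 0.27 and 0.32 on the log2 scale. *Crhr1* encodes a receptor for corticotropin-releasing hormone and *Nr2e1* an orphan nuclear receptor. *Crhr1* had ratios of 0.91, 1.27, 1.14 and 1.06 and *Nr2e1* of 1.35, 1.498, 0.97 and 1.03. The likeness is measured over 4 arrays only.

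Promoter windows of 300 bases, from RefSeq on GRCm38.p6, were on hand for 7 of the 10 genes, 9 windows in all. The T-box motif AGGTGTGA was in 0 of the 9 windows on either strand and in 1.28% of all 32851 windows. The ETS site CCGGAAGT was in 1 of the 9, that of *Fgfrl1*, and in 3.89% of all windows. These counts describe the letters in these windows and nothing further.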

How the data were processed

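The deposited scanner files came from Agilent Feature Extraction 10.7.3.1 (version per the labels). The authors' intensity columns hold each spot's mean signal in Cy3 and Cy5, each spot's median local background, and processed intensity with background subtracted and dyes normalized. The authors' log10 ratio of the dyes was not used. The deposited series table holds a score per probe and array that matches the fold change of mutant against control, with a minus sign where the mutant was lower. Its median was 1 on each array and its correlation with the log2 ratios computed here 0.916 to 0.943, but its normalization and centring are not given in the sources used here. File headers give a custom design on mm9. The methods give a Whole Mouse Genome Oligo v2 array, and probe identities follow the files.

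Of 157716 gene spots an array (39429 probes in 4 spots each), 8.29% to 8.56% carried an outlier flag and were left out, and none was saturated. Background was corrected by normexp (offset 50) and loess was applied to the ratios of every array. Levels were taken from separate channels after Aquantile normalization. A probe was tested where 4 or more of its 8 channel measurements stood well above background (50% of unflagged spots), which left 27963 probes, and the brightest stood for its gene. limma 3.58.1 in R 4.3.3 fitted the genotype with a dye term, with 2 residual and 5.65 prior degrees of freedom, and p values were adjusted by Benjamini-Hochberg over 21042 genes. Hybridisation on a shared array pairs the pools. The study's SAM comparison was unpaired, and an unpaired fit was among the 14 alternatives. The fits were tested on simulated data. Groups, sexes and dyes came from the labels, and no deposited column of per-sample values belonged to another series.

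The 10 genes and all lists were chosen with earlier results of these data known. Named genes were the 10 with every probe, up to 5 genes a list with an adjusted p below 0.05 (those with the largest ratios), and the 5 nearest to *Fgfr3*. Outside this rule, *Fgf3*, *Fos* and *Egr1* were named after their values were seen. *Tbx2* and *Sox2* were named as the genes targeted in the mutant, and *Epcam* and *Oc90* as examples of markers. *Fabp7* was named, with its value known, as a marker that the paper places in another group of cells.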

Additional observations from a re-analysis of the deposited data

Results flagged for a closer look

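In 4 of 35 groups of 4 values, a single value lay far from the others. Chance alone sets about 1 in 20 such groups apart, but ratios and levels share the same readings, so the groups are not independent. The *Fgfr1* probe that starts at transcript base 2988 had a log2 ratio of −0.17 on array 1, against 0.23 to 0.28 on the others. The second *Fgfr2* probe had a ratio of 0.13 on array 3, against −9.6e-05 to 0.02 elsewhere. The brightest *Fgfr1* probe read 15.46 in the control pool of array 3, where the remaining control pools read 15.58 to 15.60. For *Spry2* the control pool of array 4 read 8.99 and the others 9.21 to 9.24, and this array gave the ratio of *Spry2* above 0.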

How the results depend on the processing

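*Fgfr3* passed in all 14 alternatives, with log2 ratios from 0.73 (mean over its probes) to 1.21 and adjusted p from 8.9e-09 to 0.0148 (limma). It was the 1 gene of the 10 to pass as higher in each. No alternative turned the direction of a called gene. The count of 2 that passed as lower became 1 with Agilent's processed signals, 1 without the dye term, 1 with the authors' series table, 0 in the unpaired fit of separate channels without the array as replicate block, and 0 to 2 when single arrays were left out. *Dusp6* lost its call in 7 alternatives (adjusted p 0.0637 with processed signals, 0.104 without the dye term, 0.0655 with the series table and 0.320 unpaired) and *Spry1* in 2 (0.166 unpaired). None of the 10 passed for genotype by sex in the 5 alternatives of that test. The fit of separate channels with the array as replicate block repeats the main comparison and returned the same values. It counts among the 14 alternatives but is no separate check. *Etv5* passed with median centring (−0.18, adjusted p = 0.0348, limma) and with the mean over probes (adjusted p = 0.0476, limma). It has a single probe, so its ratio of −0.15 was the same in the latter, where only the values of other genes differed. Over all probes of the 10 genes, 2 passed as higher and 2 as lower, against 471 and 646 of all 27963 tested probes. With processed signals, 1 probe of the 10 genes passed as lower.

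Of the pathway lists, 2 passed as higher, against 0 with processed signals, 0 without the dye term, 0 unpaired, 1 with the series table and 0 to 3 without single arrays. The 10 that passed as lower became 4 without the dye term, 3 unpaired and 6 to 9 without single arrays. Over all genes, 476 higher and 615 lower became 236 and 380 with processed signals, 90 and 174 without the dye term, 82 and 135 unpaired, 236 and 341 with the series table, 122 and 289 without array 1, and 214 and 231 without array 3. Without array 4, 356 passed as lower. The cause of these shifts was not tested. The array files share 1 scan time, so a fit with the slide as a block was not run. Signal over background did not limit the 10 genes, whose tested probes were well above background in all 8 pools.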
